A study of Danio rerio with 3 samples.

Results

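Hox genes and the homeobox genes that act with or in front of them were examined in cartilage of the zebrafish occipital cranial base. The genes were taken by symbol as every row of the count table named for a Hox, Meis, Pbx, Pknox, Otx or Gbx gene, which gave 17 of 14417 rows. They were 1 Hox gene, 13 genes of the Hox cofactor families (5 Meis, 5 Pbx and 3 Pknox), 2 Otx genes and 1 Gbx gene. The cartilage came from wild type *Danio rerio* larvae at 6 dpf, raised without any treatment, and was cut from sections by laser capture microdissection in a way that avoided the perichondrium. The 3 independent samples, called libraries 1, 3 and 6 after the numbers in their names, were amplified for 1 round and sequenced. All 3 were of 1 condition, so the values are descriptions of this tissue and nothing was tested between groups.

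Hox genes encode homeodomain transcription factors that lie in clusters and give cells of the body axis their position, with low-numbered paralog groups used in the hindbrain and pharyngeal arches and high-numbered groups used in the trunk, tail and fins. Meis, Pbx and Pknox (Prep) proteins belong to the TALE class of homeodomain proteins, which bind DNA together with Hox proteins and also with other partners. Otx genes mark the forebrain and midbrain in front of the Hox domain, and Gbx genes act at and behind the border between midbrain and hindbrain. The occipital region is where the head skeleton meets the trunk, so it is a place where the front limit of Hox expression is of interest.

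The libraries held between 18920027 and 25604897 counts each, of which the single row AC024175.4 took 59.0, 53.7 and 34.7% in libraries 1, 3 and 6. Values below are normalized counts, that is, counts scaled by TMM, the trimmed mean of M-values, to a common library size, on which 1 read was worth about 1 normalized count. A gene was called detected where each of the 3 libraries reached 10 normalized counts. Of 16 chondrocyte marker genes listed, 15 had a row. All 15 were detected, against 67.8% of all rows, led by *col2a1a* with 366461 ± 102634 normalized counts (SD, n = 3 libraries). The markers of the labelled tissue that had a row were thus present. Library 1 stood apart. Its summed epidermis markers were at 29096 normalized counts against 308 in library 3 and 1033 in library 6, and its summed perichondrium and bone markers were at 198791 against 6478 and 12121. Of the 9 perichondrium and bone genes, 7 were highest in library 1 and 2 in library 6. Of the latter, *sp7* had 0, 29.7 and 44.5 normalized counts in libraries 1, 3 and 6. In bulk tissue, fewer cells of a type and less RNA per cell cannot be told apart.

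Of the 13 Hox paralog groups of zebrafish, group 2 was the one with a row in the count table. The RefSeq annotation of assembly GRCz12tu lists 49 protein-coding Hox genes in 7 clusters, and *hoxa2b* of the HoxAb cluster was the single gene matched, by symbol or by synonym. No Hox row was at 0 counts in any library. The other 48 Hox genes, which include *hoxb2a*, the second gene of group 2, and all genes of groups 1 and 3 to 13, were not matched to a row and were not analysed here. A gene without a row is not a gene with 0 counts. The table holds few rows with few reads. Of its rows, 39 (0.271%) had 0 counts in all 3 libraries, 26 had 1 to 3 reads in total and 271 had 4 to 10. In at least 1 library, 96.0% of rows reached 10 normalized counts. Whether rows with few reads had been removed before the counts were deposited was not tested. Over all named protein-coding genes of the annotation, 56.4% had a row, against 2.04% of the Hox genes. Other families of homeobox and related factors were matched more often, with 4 of 8 Dlx, 4 of 11 Lhx, 6 of 11 Irx, 7 of 15 Pax and 22 of 62 Fox genes. Rows named *phox2a*, *shox* and *shox2* carry the letters hox in their symbols, but these genes lie outside the Hox clusters and were not counted as Hox genes.

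**Figure D1:**
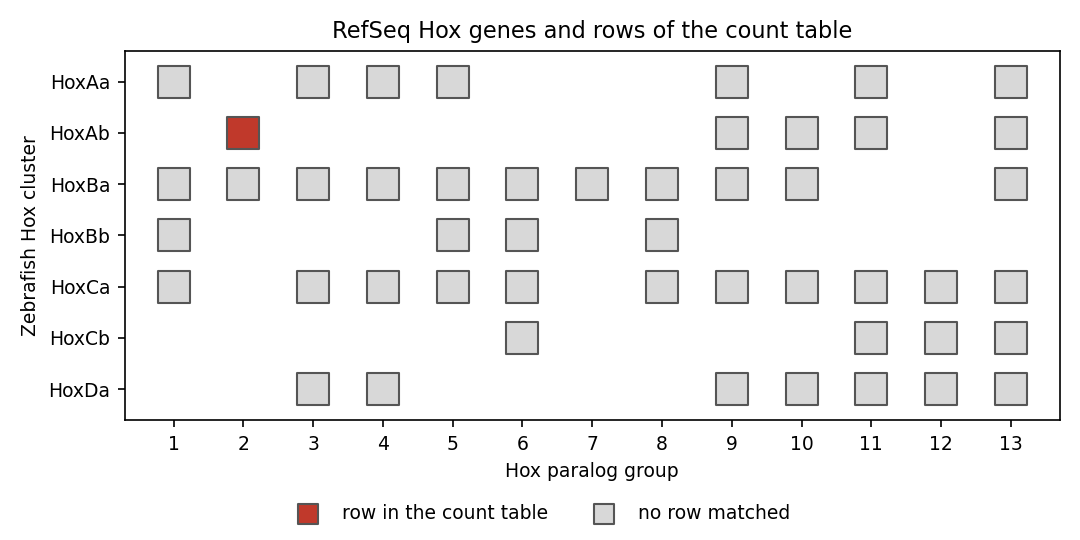
Grid of the 49 protein-coding Hox genes that RefSeq lists for zebrafish, with the 7 clusters as rows and the 13 paralog groups as columns. The red square is the 1 gene with a row in the count table, *hoxa2b* in group 2 of the HoxAb cluster, and grey squares are the 48 genes for which no row was matched.

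The genes around the Hox clusters mostly had rows. The nearest 3 other protein-coding genes on either side of each cluster were taken by the order in the annotation, passing over genes with a LOC symbol. Of these 42 genes, 32 had a row and 26 of these were detected. Every one of the 7 clusters had at least 1 detected neighbour, which asks little where 3 genes on either side are taken. Of 19579 named protein-coding genes, 11046 (56.4%) had a row, and 8008 of these were detected. The set of neighbours was chosen after the Hox rows had been seen. Beside the HoxAb cluster, *tax1bp1b* had 656 ± 361 normalized counts, *hibadhb* 320 ± 144 and *cbx3b* 134 ± 79.2. Also beside it, *snx10b* had a mean of 8.11 and was not detected, and *jazf1b* and *skap2* were not matched to a row. Beside the HoxCa cluster, *rarga*, a retinoic acid receptor gene, had 4946 ± 818 and *cbx5*, a heterochromatin protein gene, had 1061 ± 653. The homeobox genes *evx1*, *evx2* and *eve1*, which adjoin the HoxAa, HoxDa and HoxBa clusters, were not matched to a row.

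The one Hox gene was counted at a low level that differed between libraries. Hoxa2 gives the second pharyngeal arch its identity and is also used in the anterior hindbrain. *hoxa2b* had 24, 47 and 10 reads in libraries 1, 3 and 6, or 23.2, 51.8 and 9.47 normalized counts. Library 3 was the highest, 5.47 times the lowest, and library 6 fell just under the minimum of 10, so *hoxa2b* was not called detected. With library 6 left out, it was called, as libraries 1 and 3 were each above the minimum. With exact 95% Poisson intervals, these values had ranges of 14.8 to 34.5 normalized counts for library 1, 38.0 to 68.8 for library 3 and 4.54 to 17.4 for library 6. The range of library 3 thus lay above those of both others, libraries 1 and 6 overlapped, and the range of library 6 spans the minimum. These intervals cover counting error only, and they take reads as independent molecules. Reads copied in amplification are not independent, so the intervals may be too narrow. Its mean of 28.1 ± 21.6 normalized counts (SD, n = 3) was above that of 21.9% of all rows, and it fell to 17.1 without library 3.

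The order of the libraries for *hoxa2b* was not that of the summed neuron markers, though single neuron genes differed. The 11 neuron marker genes with a row, all detected, summed to 3801, 6877 and 8471 normalized counts in libraries 1, 3 and 6. Of these 11 genes, 4 were highest in library 3, as *hoxa2b* was, 6 in library 6 and 1 in library 1. In library 3, where *hoxa2b* was highest, the summed epidermis, perichondrium and bone, skeletal muscle, blood and photoreceptor markers were each at their lowest, and the chondrocyte markers summed to 670970 normalized counts against 550227 in library 1 and 913220 in library 6. Of the epidermis markers, *cdh1* and *cldne* had 0 counts in library 3. Other lists summed highest in library 3, as *hoxa2b* did. The pharyngeal arch and neural crest genes summed to 3593, 4352 and 3987 normalized counts in libraries 1, 3 and 6. Most of this sum was *sox10*, with 2836, 3811 and 2844 normalized counts. Of the 7 genes, 2 were highest in library 3, 2 in library 1 and 3 in library 6, so the order of the sum was not that of most of its genes. The fin bud genes summed to 1684, 1989 and 506, with 2 of 3 highest there. Of the 10 genes that set, keep or read Hox expression, 7 were highest there, with the sums given below. Of all rows with reads, 32.7% were highest in library 3. The part of any other tissue in the *hoxa2b* counts was not tested.

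The 17 genes with a row were detected at about the rate of the whole table. Of these 17 genes, 12 were detected, and over all rows 67.8% were. This rate leaves out genes without a row, among them all Hox genes but *hoxa2b*. Counted over all RefSeq genes, 0 of 49 Hox, 3 of 5 Meis and 5 of 6 Pbx genes were detected. So were 3 of 3 Pknox, 1 of 4 Otx and 0 of 2 Gbx genes. Over all named protein-coding genes, 8008 of 19579 were. With at least 1 read in every library the count was 15 of 17, against 86.4% of all rows. The 2 genes with 0 reads in at least 1 library, as 13.6% of all rows had, were *meis2a* and *meis3*, and 16 of 17 reached 10 normalized counts in at least 1 library, as did 96.0% of all rows. The median of the genes' means was 272 normalized counts, against 110 over all rows, on counts that are not corrected for transcript length. The median SD between libraries of log2 (normalized counts + 1) was 0.63 over the 17 genes and 0.96 over all rows.

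**Figure D2:**
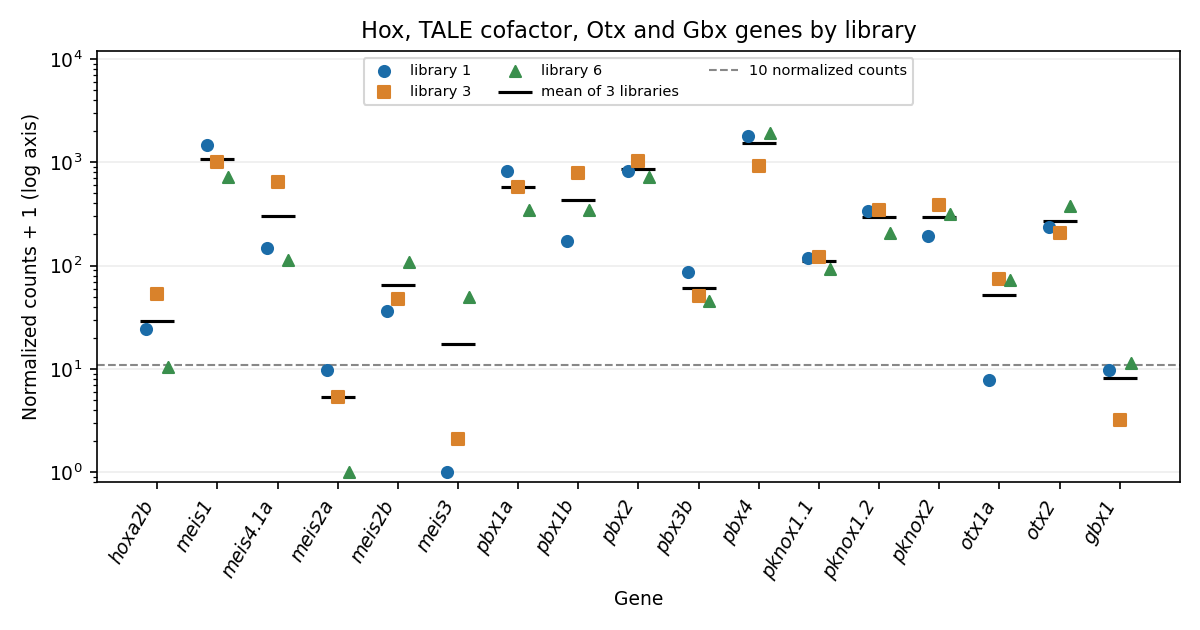
Normalized counts plus 1 (log axis) of the 17 genes in library 1 (circles), library 3 (squares) and library 6 (triangles), with the mean of the 3 libraries as a bar and a dashed line at 10 normalized counts. The 5 Pbx and 3 Pknox genes lie above the line in every library, whereas *hoxa2b*, *meis2a*, *meis3*, *otx1a* and *gbx1* have at least 1 library under it.

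The Hox cofactor genes held most of the normalized counts of the set. Of the 13, 11 were detected, against 67.8% of all rows. Their summed level was 6001, 5922 and 4965 normalized counts in libraries 1, 3 and 6, a mean of 5629 ± 576 (SD, n = 3). All 5 Pbx genes and all 3 Pknox genes were detected, and 3 of the 5 Meis genes were. In RefSeq all 5 Meis and all 3 Pknox genes of zebrafish had a row, and of the 6 Pbx genes *pbx3a* alone was not matched.

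Pbx proteins are the partners that let Hox proteins tell similar DNA sites apart. The summed Pbx genes varied little, with 3690, 3365 and 3377 normalized counts in libraries 1, 3 and 6. *pbx4* (lazarus), which in zebrafish is needed for hindbrain segment identity and arch patterning, had 1781, 921 and 1918 normalized counts in libraries 1, 3 and 6. Library 3 was thus the low library for *pbx4*. *pbx2*, which acts together with *pbx4* in the zebrafish hindbrain, had 824, 1034 and 726 normalized counts, with library 3 the highest. The ratio of its highest to its lowest library was 1.42, and 91.7% of the 13166 rows that average 10 or more normalized counts had a wider spread on the log2 scale. *pbx3b* was counted at 85.9, 49.6 and 44.5 normalized counts, highest in library 1.

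The duplicate genes *pbx1a* and *pbx1b* differed in their proportion between libraries, though both were lower in library 6 than in library 3. *pbx1a* had 827, 571 and 346 normalized counts in libraries 1, 3 and 6, so library 1 was the highest. *pbx1b* had 172, 790 and 343 in the same order, so library 1 was the lowest and library 3 the highest. As a share of the reads of both genes, which does not depend on normalization, *pbx1a* made up 82.8% for library 1, with a 95% Wilson interval of 80.4 to 85.0%. The share was 41.9% (39.2 to 44.7%) for library 3 and 50.2% (46.6 to 53.8%) for library 6. The 3 intervals did not overlap, though they too take reads as independent molecules. The mean of *pbx1b* fell from 435 to 269 normalized counts without library 3.

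Meis proteins bind Pbx and keep it in the nucleus, and they act in the hindbrain, eye, limb and heart. Of the 5 Meis genes, the *meis1* duplicates held most of the reads in every library. *meis1*, which RefSeq now calls *meis1b*, had 1473, 1007 and 711 normalized counts in libraries 1, 3 and 6, with a mean of 1064 ± 384. Its duplicate *meis4.1a*, now *meis1a*, had 148, 647 and 112. Library 3 was therefore far above the others for *meis4.1a*, at 5.79 times the lowest library, and the mean of 302 ± 299 fell to 136 without it. The share of *meis1* in the reads of this pair was 90.9% (89.4 to 92.2%), 60.9% (58.4 to 63.3%) and 86.4% (84.0 to 88.5%), by library as before. As for *pbx1a* and *pbx1b*, the share of the first gene was lowest in library 3.

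The other Meis genes were counted at low levels. *meis2b* had 35.7, 46.3 and 108 normalized counts in libraries 1, 3 and 6, highest in library 6, and its mean of 63.3 fell to 39.8 without that library. *meis2a* had 9, 4 and 0 reads. It was under the minimum in all 3 libraries, and its mean of 4.36 normalized counts fell to 2.17 without library 1. *meis3*, which in zebrafish acts in hindbrain patterning, had 0, 1 and 51 reads in libraries 1, 3 and 6. The 48.3 normalized counts of library 6 were 16.7 times the level that 3 reads would give in library 1, where the count was 0. This ratio leaves out the counting error of the 51 reads. Without library 6 the mean of *meis3* fell from 16.5 to 0.535 normalized counts, so its level rests on 1 library. Several marker lists also had their highest sums in library 6, among them the chondrocyte and neuron markers with the values given above. The skeletal muscle markers summed to 9351, 5022 and 15019 normalized counts in libraries 1, 3 and 6 and the blood markers to 35824, 5190 and 37724. Their part in the *meis3* reads was not tested.

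Pknox proteins (Prep) also bind Pbx and are made broadly in the embryo. *pknox1.1* varied least between libraries of the 17 genes, with 119, 121 and 91.8 normalized counts in libraries 1, 3 and 6, and 93.7% of the rows that average 10 or more normalized counts had a wider spread. *pknox1.2* had 335, 345 and 206 normalized counts. Unlike the pairs above, these duplicates kept their proportion, with *pknox1.2* taking 73.8% of their reads (69.7 to 77.6%), 74.0% (69.6 to 78.0%) and 69.1% (63.8 to 74.0%), by library as before, so that all 3 intervals overlapped. *pknox2* had 192, 386 and 312 normalized counts, lowest in library 1. All 3 Pknox genes were highest in library 3, as were 8 of all 17 genes. Over all rows with reads, 32.7% were highest in library 3.

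**Figure D3:**
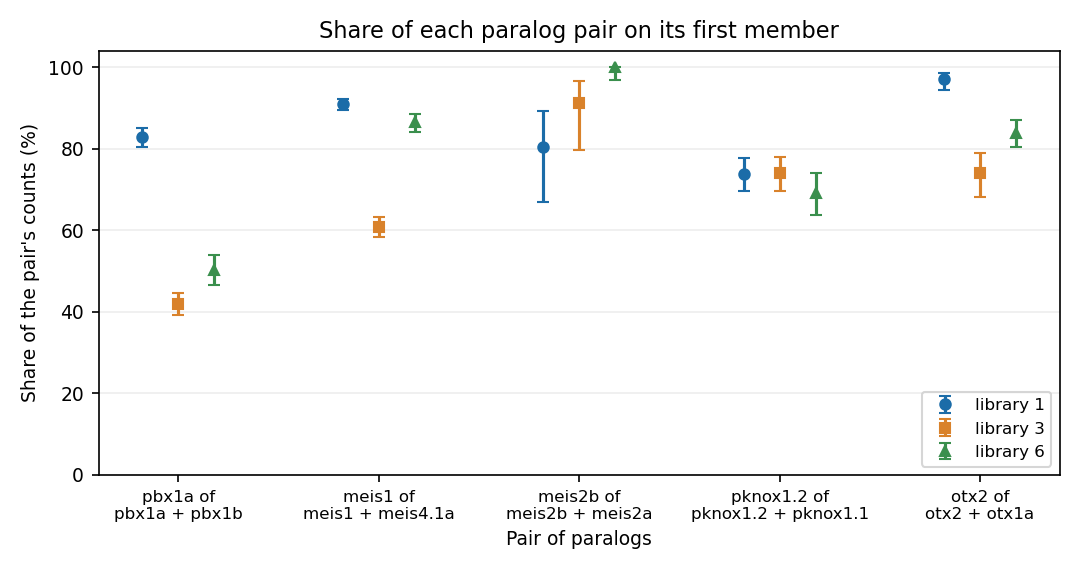
Share of the reads of each pair of paralogs that fell on its first member, in percent, by library, with 95% Wilson intervals as bars. The bars cover counting error only and take reads as independent molecules. The share of *pbx1a* runs from 41.9 to 82.8% and that of *meis1* from 60.9 to 90.9%, both lowest in library 3, while the share of *pknox1.2* stays between 69.1 and 74.0%.

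The genes of the region in front of the Hox domain were also counted. *otx2*, now *otx2b* in RefSeq, specifies forebrain and midbrain and is used again in the retina. It had 234, 206 and 375 normalized counts in libraries 1, 3 and 6, with a mean of 272 ± 90.6, and was detected. *otx1a*, which RefSeq now lists as *otx2a*, had 7, 66 and 76 reads, or 6.76, 72.7 and 72.0 normalized counts. Libraries 3 and 6 were alike and the value of library 1 was more than 10 times lower, and under the minimum. The exact 95% Poisson range of library 1 was 2.72 to 13.9 normalized counts, which spans the minimum. The ranges were 56.2 to 92.5 for library 3 and 56.7 to 90.1 for library 6, so the size of the gap is uncertain. The share of *otx2* in the reads of this pair was 97.2% (94.3 to 98.6%), 73.9% (68.2 to 78.9%) and 83.9% (80.3 to 86.9%), again by library. *gbx1*, a gene of the anterior hindbrain and spinal cord, had 9, 2 and 11 reads and was not detected, with a mean of 7.10 ± 4.33 normalized counts. Of the 4 Otx and 2 Gbx genes in RefSeq, *otx1*, *otx5* and *gbx2* were not matched to a row.

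Markers of nerve and of photoreceptors, which are tissues known to use Otx genes, were set beside these values. The summed neuron markers given above were lowest in library 1, as *otx1a* was, and highest in library 6, as *otx2* was. Neither gene had the full order of the neuron sums. *otx2* was lowest in library 3, and *otx1a* was alike in libraries 3 and 6. Genes of the midbrain and hindbrain border went another way. The 3 with a row, of 10 listed, summed to 851.3, 233.5 and 247.1 normalized counts in libraries 1, 3 and 6. All 3 were highest in library 1, where *otx1a* was lowest. The 6 photoreceptor and pineal genes with a row, of 12 listed, summed to 2042, 18.7 and 723 normalized counts in libraries 1, 3 and 6, and 1 of them, *rho*, was detected. In library 3, *gnat1*, *pde6c*, *arr3a* and *aanat2* had 0 counts. *otx2* was counted there at 206 normalized counts and *otx1a* at 72.7, its highest value. *egr2b* (krox20), a hindbrain gene named here after its values were seen, had 0, 87.0 and 73.9 normalized counts, and so shared with *otx1a* its low value in library 1. The part of any of these tissues in the Otx counts was not tested.

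**Figure D4:**
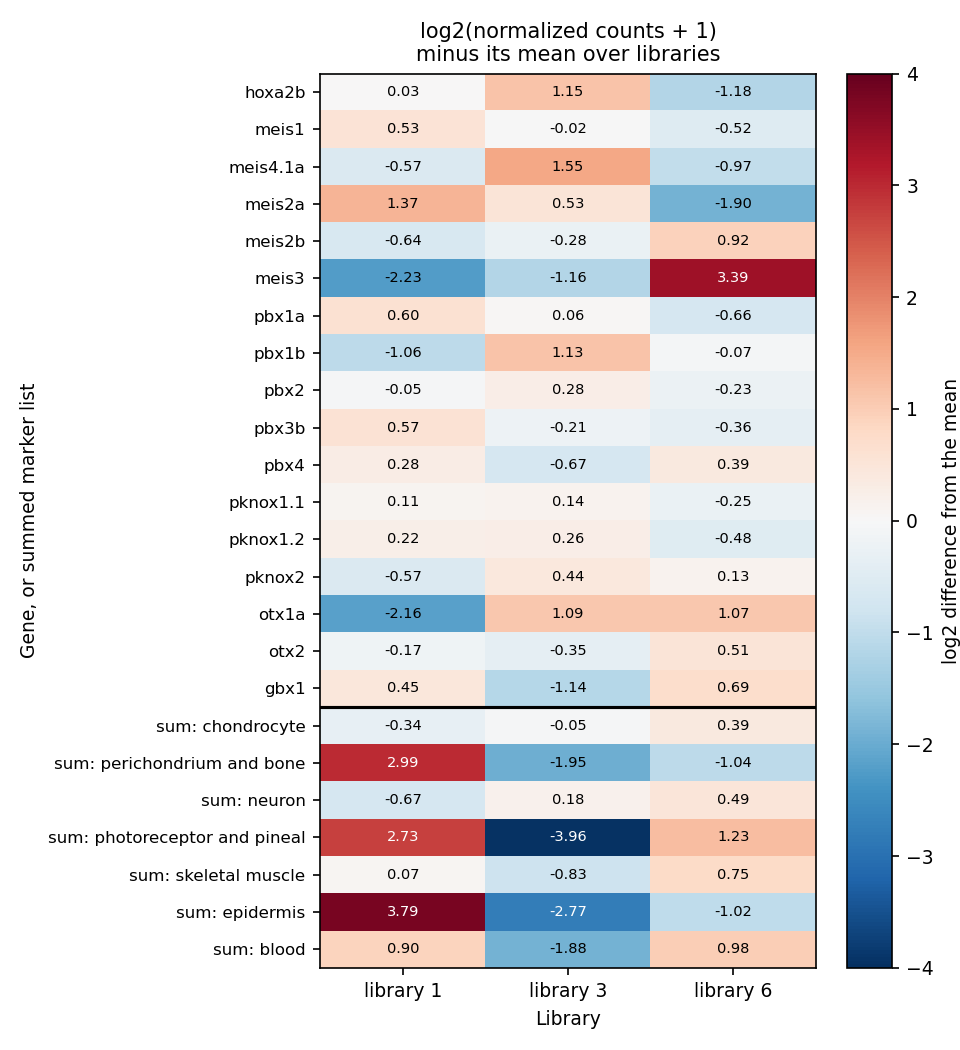
Difference of log2 (normalized counts + 1) from its own mean over the 3 libraries, for the 17 genes (above the line) and for the summed counts of 7 marker lists (below it), with libraries as columns and red for values above the mean. In library 3, *hoxa2b* (1.15), *meis4.1a* (1.55) and *pbx1b* (1.13) lie above their means while the epidermis sum (-2.77) and the photoreceptor sum (-3.96) lie below theirs.

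Other genes that set, keep or read Hox expression were taken as a list of 17, of which 10 had a row and 9 were detected. Of all named protein-coding genes 56.4% had a row, and of all rows 67.8% were detected. The exception was *egr2b*. The most abundant was *mafba*, which in zebrafish controls Hox genes of group 3 in the hindbrain, with 2786, 3199 and 2432 normalized counts in libraries 1, 3 and 6. *kmt2a*, a histone methyltransferase that keeps Hox genes active, had 1929, 2711 and 2182. *ezh2*, the enzyme of the Polycomb complex that keeps Hox genes silent, had 449, 1219 and 849. Of the 10 genes, 7 were highest in library 3, against 32.7% of all rows with reads. The list summed to 9562 normalized counts in library 3, against 6636 in library 1 and 7113 in library 6. All of these genes have other roles, and the list holds chromatin regulators that most cells express.

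Library 1 had the highest sums of the epidermis markers and of the perichondrium and bone markers, though not of *sp7*. Without it, 13 of the 17 genes were detected, the added one being *otx1a*, and the summed cofactor genes had 5348 normalized counts. Reads of duplicated genes such as *pbx1a* and *pbx1b* may have been split between copies in counting, so the levels and shares of such pairs are uncertain.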

How the data were processed

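The authors deposited raw counts of reads per gene symbol for 3 libraries, as whole numbers without normalization. The submitters' processing notes name Trimmomatic 0.36, edgeR and the Zv9 genome build, and the aligner, counting tool and annotation are not given in the sources used here. All 3 columns were used. Counts were normalized by TMM on all genes in edgeR 4.0.16 (R 4.3.3), and divided by the effective library size times its mean over libraries. Other calculations used Python 3.11.15. The procedure was tested on simulated data. A row was called detected where every library reached 10 normalized counts.

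Genes were matched by symbol, then by a RefSeq synonym that was no current symbol of another gene and gave exactly 1 row. The annotation (GRCz12tu) is of another build, so it gave names and gene order but no coordinates. Every gene found by the symbol rule is named. Of the other lists, at most the 3 most abundant genes are named, beside markers at 0 counts. Genes beside the Hox clusters are named as examples and were not picked by abundance. The genes and lists were chosen with earlier results of these data known. With 1 condition there was no contrast to test. Alternatives were DESeq2 1.42.0 size factors, upper-quartile and total-count scaling, TMM on rows where each library had 10 or more counts, other minimums and leaving out each library.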

Additional observations from a re-analysis of the deposited data

How the results depend on the processing

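No paired analysis was possible because the 3 libraries form a single group. The number of detected genes was 12 of 17 and stayed between 10 and 16 under the other minimums and scalings, and between 12 and 13 with 1 library left out. Leaving a library out also loosens the rule for a call, because fewer libraries must reach the minimum. The Hox row, and with it the number of paralog groups detected, went from 0 to 1 under total-count scaling, with a minimum of 1 read or 5 normalized counts in every library, and with 10 normalized counts in at least 1 library. It was between 0 and 1 with 1 library left out, and 1 without library 6. Of the 3 Otx and Gbx genes, 1 was detected, against 3 with a minimum of 1 read in every library or of 10 normalized counts in at least 1 library, 2 with a minimum of 5 normalized counts, and from 1 to 2 with 1 library left out. The number of detected cofactor genes stayed between 9 and 12. Under 5 other scalings, 1 of them (total counts without AC024175.4, the most abundant row) chosen after seeing the data, none of 85 means of single genes moved by more than 1 SD. The SD between libraries is wide for several genes, so this measure allows large moves. These means were between 0.904 and 1.22 times those of the main scaling. With 1 library left out, 6 of the 17 means moved by over 1.5 times, those of *hoxa2b*, *meis2a*, *meis2b*, *meis3*, *meis4.1a* and *pbx1b*. The share of Hox counts on groups 1 to 5 was not computed because 1 Hox row was found. Depth limits *gbx1*, *meis2a* and *hoxa2b*, whose values rest on few reads.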

Other observations

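Genes of the tissues that meet at the occipital region were also counted. For comparison with the lists below, 56.4% of all named protein-coding genes had a row and 67.8% of all rows were detected. Of 13 genes of the sclerotome and occipital mesoderm, 8 had a row and 4 were detected, with sums of 980, 930 and 1873 normalized counts in libraries 1, 3 and 6. The most abundant were *foxc1b* with 608 ± 144 normalized counts (SD, n = 3 libraries), *foxc1a* with 309 ± 103 and *nkx3.2*, a gene of cartilage and jaw joint formation, with 162 ± 229. For *nkx3.2* the libraries were far apart, at 46.3, 13.2 and 426 normalized counts in libraries 1, 3 and 6.

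Of 13 genes of the pharyngeal arches and neural crest, 7 had a row and 4 were detected. *sox10*, a neural crest and cartilage factor, had 3164 ± 561 normalized counts and *tfap2a* 562 ± 82.3. Of 10 genes of the midbrain and hindbrain border, 3 had a row and all 3 were detected, among them *eng2b* with 241 ± 179 and *pax2a* with 171 ± 179 normalized counts, each highest in library 1. Of 7 fin bud genes, which were listed because Hox genes of high-numbered groups act in fins, 3 had a row and all 3 were detected, led by *tbx15* with 1598, 1789 and 337 normalized counts in libraries 1, 3 and 6.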
